A study of Mus musculus with 4 samples.

Results

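Among the open chromatin sites of mouse acute myeloid leukemia cells are faint ones that lie away from promoters and were nevertheless found in both biological replicates. A site was taken from the replicate 1 peak list, on the autosomes and X, when the authors' score was below 80 and it overlapped a replicate 2 peak by at least 1 bp. It also had to lie outside exons and more than 1 kb, but at most 100 kb, from the nearest transcription start site (TSS) of a protein-coding gene. These choices gave 3504 sites, called weak distal shared peaks below, out of 236109 peaks of replicate 1. They were chosen by their replicate 1 score and their overlap with replicate 2, so those values are given as description only.

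The data came from DNase-seq, in which the nuclease DNase I cuts accessible DNA in nuclei and the cut ends are sequenced. The cells were C57BL/6J acute myeloid leukemia cells that had been differentiated in vitro, and the labels gave no treatment, control, age or sex. There were 4 libraries, 2 for each of 2 biological replicates, and the authors deposited 1 peak list per biological replicate from its pooled libraries. What cells the differentiation started from, and whether the replicates were separate cultures, was not stated beyond the replicate numbers. Every peak is a 150 bp window with a whole-number score. The scale of the score, the peak caller and the read depth were not given in the sources used here. The lists differed in length, with 236109 and 67395 peaks on the autosomes and X. Of the replicate 1 peaks 26.1% overlapped a replicate 2 peak, and of the replicate 2 peaks 91.9% overlapped a replicate 1 peak. All 8 of the myeloid marker genes examined (Ptprc, Spi1, Cebpa, Itgam, Mpo, Kit, Csf2rb and Csf3r) had a promoter peak in both lists. Of 8 marker genes of other cell types, 2 had one in replicate 1 (Cd3e with a score of 48 and Gata1 with 100) and 0 had one in replicate 2.

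CTCF is a zinc finger protein that binds a long DNA motif, halts the growth of chromatin loops and marks their ends, and occupies many of the same sites in most cell types. REST is a repressor that binds a long motif at genes for neuronal proteins and keeps them silent outside the nervous system. PU.1, C/EBP, RUNX and AP-1 factors, by contrast, bind short motifs at the enhancers that give myeloid cells their identity. A consensus match is a description of letters and does not show that the factor was bound.

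Among the 21 motifs searched, CTCF had the widest gap in share between the weak distal shared peaks and the weak distal peaks of replicate 1 alone. That holds over all scores together. The peaks of replicate 1 alone scored lower, with a median of 55 against 69, and shares within score bins are given below. An exact match to the CTCF consensus of 14 letters, on either strand with its middle within 50 bp of the peak centre, was present in 353 of the 3504 members. That is 10.1% (95% Wilson interval 9.12% to 11.1%), and over all 152316 distal peaks of replicate 1 the share was 2.16%. The core of the match is shown in capitals for 6 of the 10 members whose exact match came with the highest replicate 2 scores, because the G-rich block and its neighbours can be compared letter by letter. The reference is GRCm38 (mm10), each line reads 5′ to 3′ along the motif, and the name is that of the nearest protein-coding gene.
Rcan1, chr16:92385220-92385265, plus strand: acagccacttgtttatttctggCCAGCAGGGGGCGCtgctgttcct
Snx9, chr17:5748696-5748741, minus strand: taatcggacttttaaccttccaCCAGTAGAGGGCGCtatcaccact
Tmem92, chr11:94832747-94832792, plus strand: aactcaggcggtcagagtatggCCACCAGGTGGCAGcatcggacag
Parg, chr14:32229175-32229220, plus strand: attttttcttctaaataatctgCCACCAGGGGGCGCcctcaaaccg
Greb1, chr12:16754485-16754530, minus strand: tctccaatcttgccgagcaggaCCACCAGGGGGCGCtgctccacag
Gmpr, chr13:45560705-45560750, plus strand: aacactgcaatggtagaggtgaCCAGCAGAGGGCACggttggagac

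The Rcan1 site, 8267 bp from a start of the gene of a calcineurin regulator, scored 78 in replicate 1 and 41 in replicate 2. Of the other sites shown, the intronic one near Snx9, which encodes a sorting nexin of endocytosis, scored 77 and 39. The intronic sites nearest to Parg, which encodes an enzyme that removes poly(ADP-ribose), and to Greb1 scored 72 and 36, and 69 and 35. The Tmem92 site scored 79 and 38, and the intronic site nearest to Gmpr, the gene of GMP reductase, 74 and 34. Intronic here means outside exons and within some protein-coding gene, which need not be the gene with the nearest start. These 6 were picked for their replicate 2 scores, so those values describe the choice.

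REST matches were rarer and set apart in the same direction. An exact REST match of 16 letters was found in 38 members, 1.08% (0.791% to 1.48%), against 0.144% of all distal peaks. The match is in capitals in 6 of the 10 REST members with the highest replicate 2 scores, shown because both conserved ends of the motif, separated by 2 free letters, are visible.
Gripap1, chrX:7795202-7795239, minus strand: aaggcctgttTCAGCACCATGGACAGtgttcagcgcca
Sult4a1, chr15:84109091-84109128, minus strand: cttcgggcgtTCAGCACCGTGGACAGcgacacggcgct
Shank2, chr7:144294447-144294484, minus strand: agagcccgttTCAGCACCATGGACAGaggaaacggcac
Slc7a14, chr3:31309039-31309076, plus strand: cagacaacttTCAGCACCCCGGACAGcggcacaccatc
Phactr3, chr2:178277381-178277418, plus strand: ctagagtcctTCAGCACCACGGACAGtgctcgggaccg
Crtac1, chr19:42425403-42425440, minus strand: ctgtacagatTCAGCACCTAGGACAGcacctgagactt

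In the scores, the members sat low in both lists. Replicate 1 scores ran from 8 to 79 with a median of 69, a range the rule fixed at its upper end. The strongest overlapping peak of replicate 2, called the partner, scored from 2 to 84 with a median of 18 and quartiles of 15 and 23. In the replicate 2 list as a whole the median was 35, and 97.4% of the partners scored below it. The median partner stood at percentile 11.7 of the replicate 2 list, and the median partner of a shared distal peak scoring 80 or more in replicate 1 stood at percentile 49.6. The rule fixed these sets by their replicate 1 scores, and the score scales of the lists cannot be set against each other. Around the ceiling, the 902 members scoring 75 to 79 had a median replicate 2 score of 21, and the 1017 shared distal peaks scoring 80 to 84 had 23. At a replicate 1 score of exactly 79 the highest replicate 2 score was 47, near Gm3336, and at exactly 80 it was 67, near Nkx2-3. Both of these partners also overlapped a stronger replicate 1 peak, and near Nkx2-3 the overlap was only 10 bp.

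**Figure D1:**
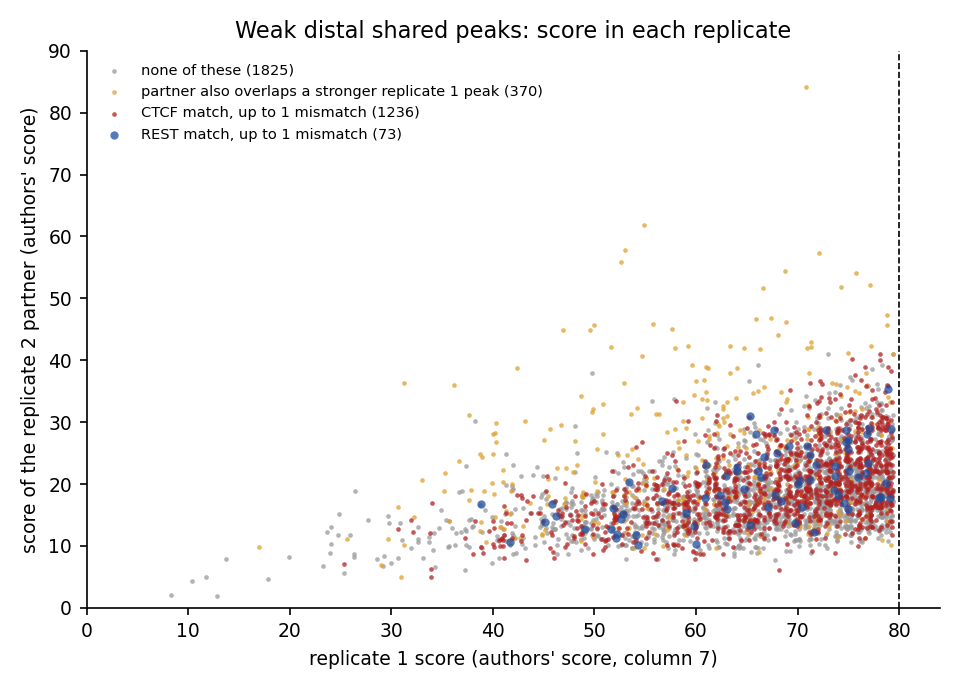
Each point is 1 of the 3504 members, with its replicate 1 score (x axis) and the score of its replicate 2 partner (y axis), both the authors' scores without units and spread by up to 0.4 for visibility. Colours are given in the order REST match, CTCF match, partner that also overlaps a stronger replicate 1 peak, and none of these, and the dashed line is the ceiling of 80. All points above a replicate 2 score of 41 have a partner that also overlaps a stronger replicate 1 peak.

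The windows of both lists were placed on the same grid of 20 bp, so positions could be compared directly. In 954 members (27.2%) the partner covered the identical window, and in 1327 more (37.9%) it was displaced by a single step of 20 bp. The largest overlap had a median of 130 bp. All 3504 members lay in a hotspot of replicate 1, a wider region of raised cutting, and 98.2% lay in a hotspot of replicate 2, against 0.232% of the weak distal peaks found in replicate 1 alone. Hotspots and peaks were made from the same reads, so these shares are no independent evidence of the overlap.

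Because peaks are not replicates and each replicate gave 1 list, no test was made, and intervals cover counting error only. The comparison set was the 84810 peaks of replicate 1 that met the same rules of place and score but had no replicate 2 partner. The rule itself used this split: 3.97% of all 88314 weak distal peaks were shared. In the set without a partner 0.611% held an exact CTCF match (0.561% to 0.665%), and among the 30179 distal shared peaks scoring 80 or more 7.47% did (7.18% to 7.77%). The intervals of the members and of either other set did not overlap, and the members had the highest share of these sets. Near the ceiling, however, the share was 11.9% in the members scoring 75 to 79 (9.91% to 14.1%). In the shared distal peaks scoring 80 to 84 it was 14% (12% to 16.2%), so a high share was not particular to the members. With 1 mismatch allowed, 35.4% of the members matched (1240 peaks), with 8.15% over all distal peaks, 4.48% of the weak peaks of replicate 1 alone and 20.8% of the stronger shared peaks. With 2 mismatches allowed the shares were 55.0% of the members and 12% of the weak peaks of replicate 1 alone. The members' own flanks, windows 500 bp toward the chromosome start, gave 0.0285% for the exact match, 0.342% with 1 mismatch and 2.34% with 2.

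**Figure D2:**
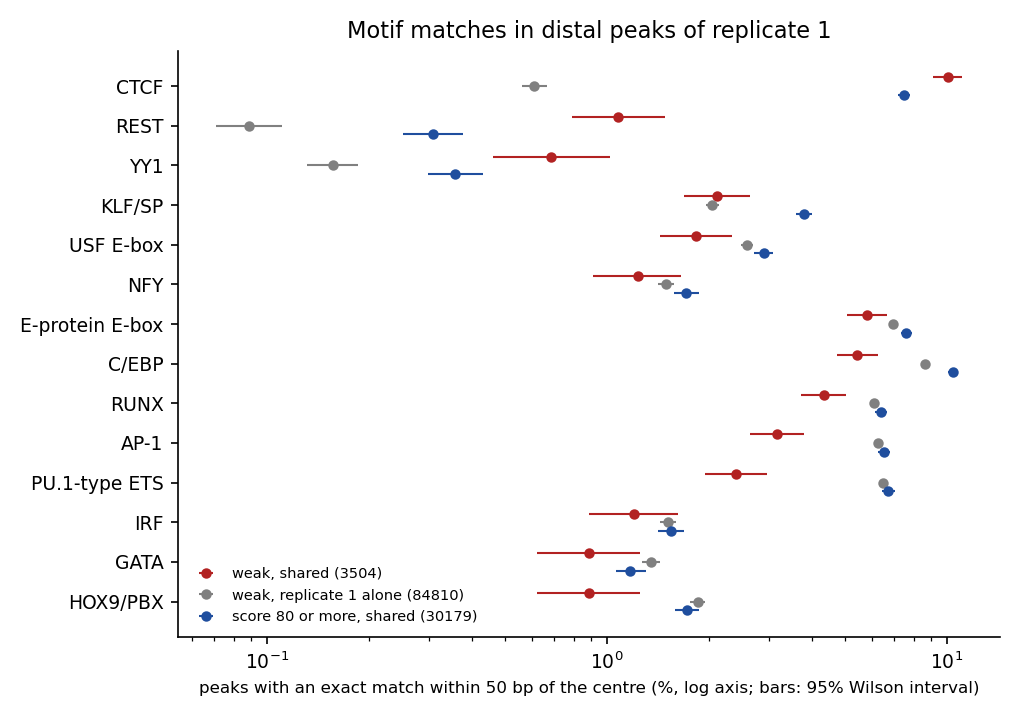
Percent of peaks (x axis, log scale) with an exact match to each of 14 motifs (y axis) within 50 bp of the centre, for the members, the weak distal peaks of replicate 1 alone and the shared distal peaks scoring 80 or more, with 95% Wilson intervals as bars. The members lie to the right of the weak unshared peaks for CTCF, REST and YY1, and to the left for PU.1-type ETS, AP-1, RUNX, C/EBP, both E-boxes, GATA and HOX9/PBX.

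The REST share was 0.0884% in the weak peaks of replicate 1 alone (0.0706% to 0.111%) and 0.308% in the stronger shared peaks (0.252% to 0.377%). Up to 1 mismatch, REST matched 2.08% of the members, 0.548% of all distal peaks and 0.468% of the weak peaks of replicate 1 alone. None of the members' flanks held an exact REST match, which allows a share of up to 0.11% by the Wilson interval. YY1, a ubiquitous zinc finger factor, matched (AANATGGCG) in 24 members, 0.685% (0.461% to 1.02%), against 0.206% of all distal peaks. Both this YY1 consensus and the CTCF core can hold the letters ATGGCG. So aligned, the YY1 letters put A at position 5 of the core, counted from its 5′ end, where the CTCF consensus has C or T. They can therefore lie in a CTCF match with 1 mismatch but, in this alignment, not in an exact one. Of the 887 members with exactly 1 CTCF mismatch, 276 had A at that position.

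Over all scores, the motifs of myeloid enhancers went the other way. The PU.1-type ETS site (GAGGAAGT), bound by PU.1, the factor that directs myeloid development, was present in 84 members. That is 2.40% (1.94% to 2.96%), against 6.89% of all distal peaks, 6.48% of the weak peaks of replicate 1 alone and 6.72% of the stronger shared peaks. AP-1 (TGANTCA), the site of FOS and JUN dimers, matched in 111 members or 3.17% (2.64% to 3.80%), with 6.7% over all distal peaks and 2.91% in the members' flanks. The members' AP-1 share thus lay within counting error of that of their flanks, whereas their PU.1-type share exceeded the 0.428% of the flanks. C/EBP (TTGCNNAA), the site of the granulocyte regulator C/EBPα and its relatives, matched in 191 members or 5.45%, against 9.37% of all distal peaks. RUNX (TGTGGTT) matched in 152 members or 4.34%, against 6.43%. The E-box of E-proteins (CAGCTG) matched in 204 members or 5.82%, against 7.18%. The HOX9/PBX site (TGATTNAT), of interest because HOXA9 and its partners drive many myeloid leukemias, matched in 31 members or 0.885%, against 1.9%. In the members' flanks the shares were 4.77% for C/EBP, 3.14% for RUNX, 4.48% for the E-box of E-proteins and 1.43% for HOX9/PBX. For each of these the intervals of members and flanks overlapped. Over all 21 motifs searched, 36.0% of the members had at least 1 exact match, against 39.6% of the weak peaks of replicate 1 alone and 48.5% of the stronger shared peaks.

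Only 84 members carried the PU.1-type letters, so 2 of the 5 with the highest replicate 2 scores are shown with the match in capitals, for contrast with the long CTCF and REST cores. The Aqp12 site scored 75 in replicate 1 and 30 in replicate 2. The intronic site nearest to Fbln5, the gene of an elastic fibre protein, scored 78 and 30.
Aqp12, chr1:93013564-93013599, minus strand: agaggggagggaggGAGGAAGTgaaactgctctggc
Fbln5, chr12:101811369-101811404, minus strand: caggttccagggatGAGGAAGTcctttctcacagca

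Members scored higher in replicate 1 than the weak peaks without a partner, with medians of 69 and 55, so the shares were also compared within score bins. Below 50, from 50 to 59, from 60 to 69 and from 70 to 79, the exact CTCF share of the members was 6.71%, 9.12%, 9.49% and 11.4%. Over the same bins the share in the peaks of replicate 1 alone was 0.650%, 0.576%, 0.535% and 0.684%. The gap was therefore present in every bin, and the share of the unshared peaks showed no trend. For the PU.1-type site the members had 2.04%, 1.12%, 2.86% and 2.62%, and the unshared peaks had 5.76%, 6.52%, 6.94% and 7.26%. The intervals of members and unshared peaks did not overlap in any bin for CTCF or the PU.1-type site. The other myeloid motifs were less even. RUNX below 50 was at 6.71% in members (4.51% to 9.86%) and 5.88% in unshared peaks (5.61% to 6.16%), the reverse of its overall direction and within counting error, and its intervals also overlapped from 50 to 59 and from 60 to 69. AP-1 below 50 was at 4.08% (2.45% to 6.73%) and 5.63% (5.37% to 5.90%), and C/EBP from 50 to 59 at 7.26% (5.36% to 9.77%) and 8.46% (8.10% to 8.83%), with overlapping intervals. From 70 to 79 the members were lower for RUNX, AP-1 and C/EBP, at 3.65%, 3.16% and 4.99% against 6.64%, 7.55% and 9.34%, with intervals apart.

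Read the other way, the letters under a weak distal peak went with whether it was found in replicate 2. Of the 871 weak distal peaks with an exact CTCF match 40.5% were shared (37.3% to 43.8%), and of the 113 with an exact REST match 33.6% were (25.6% to 42.7%). Of the 82823 with neither match, even with 1 mismatch allowed, 2.65% were shared. From the lowest to the highest score bin the shared share was 10.8%, 27.2%, 48.4% and 65.5% with an exact CTCF match. With an exact REST match it was 10.0%, 13.8%, 34.5% and 84%, the last being 21 of 25 peaks (65.3% to 93.6%). All weak distal peaks together gave 1.17%, 2.31%, 5.03% and 10.2%, and those with the PU.1-type site 0.416%, 0.403%, 2.13% and 3.93%. A weak peak with a CTCF core and a score below 50 was thus shared about as often as any weak distal peak scoring 70 to 79.

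**Figure D3:**
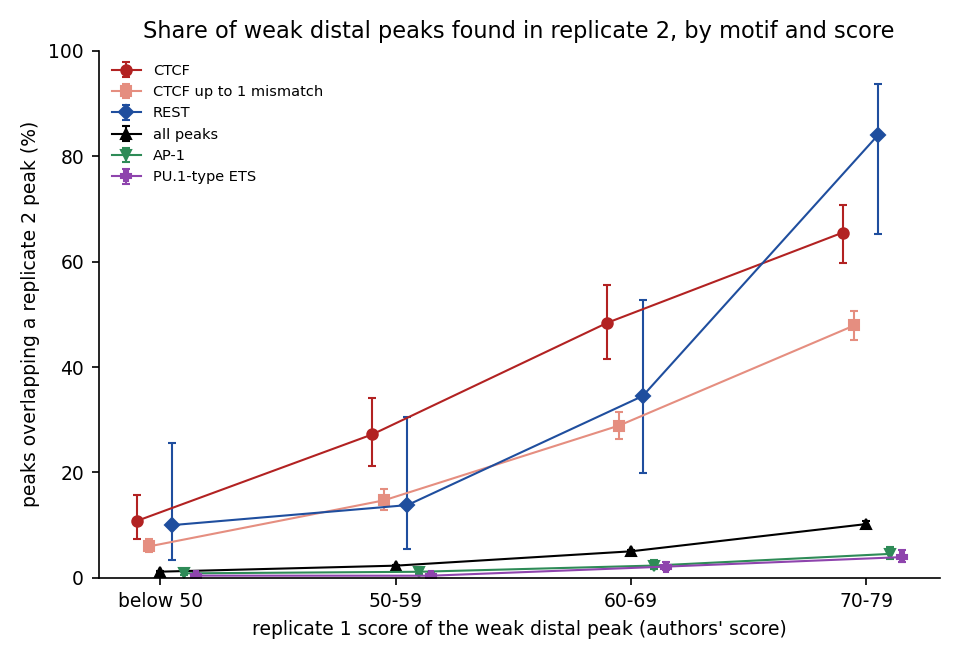
Percent of weak distal replicate 1 peaks that overlap a replicate 2 peak (y axis) in 4 bins of the replicate 1 score (x axis), for peaks with each motif and for all peaks, with 95% Wilson intervals as bars. In the bin from 70 to 79 the share was 84% with REST, 65.5% with CTCF, 10.2% for all peaks, 4.54% with AP-1 and 3.93% with the PU.1-type site.

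Within the members, the replicate 2 score, which the rule did not use beyond the presence of a partner, also went with the CTCF letters. With up to 1 mismatch, CTCF matched 28.1% of the 828 members with a partner scoring below 15 (25.2% to 31.3%). It matched 33.9% of the 1239 scoring 15 to 19, 40.7% of the 796 scoring 20 to 24 and 41.0% of the 641 scoring 25 or more. These groups were not matched for replicate 1 score. They also differed in the share whose partner overlapped a stronger replicate 1 peak as well. From the lowest to the highest group that share was 8.33%, 7.1%, 8.79% and 25.7%. The median replicate 2 score was 20 for the exact CTCF members, 21 for the exact REST members and 18 for members with neither match. These medians differed little against the quartiles of 15 and 23 over all members.

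Matches were counted only with their middle within 50 bp of the centre, so some closeness is built in. Of the exact CTCF members 246 of 353 (69.7%) had the middle of the match within 20 bp of the peak centre, as had 26 of 38 exact REST members (68.4%) and 44 of 84 PU.1-type members (52.4%). Both strands were used alike by the CTCF match, 177 times plus and 176 times minus. Along the direction of the motif as printed above, with up to 1 mismatch, the peak centre lay downstream of the middle of the core in 746 members and upstream in 478, with a median of 5.5 bp downstream. The stronger shared peaks with an exact match gave a median of 6 bp downstream and the weak peaks of replicate 1 alone 5 bp. For REST the median was 11.5 bp, with the centre downstream in 25 of 38 members.

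**Figure D4:**
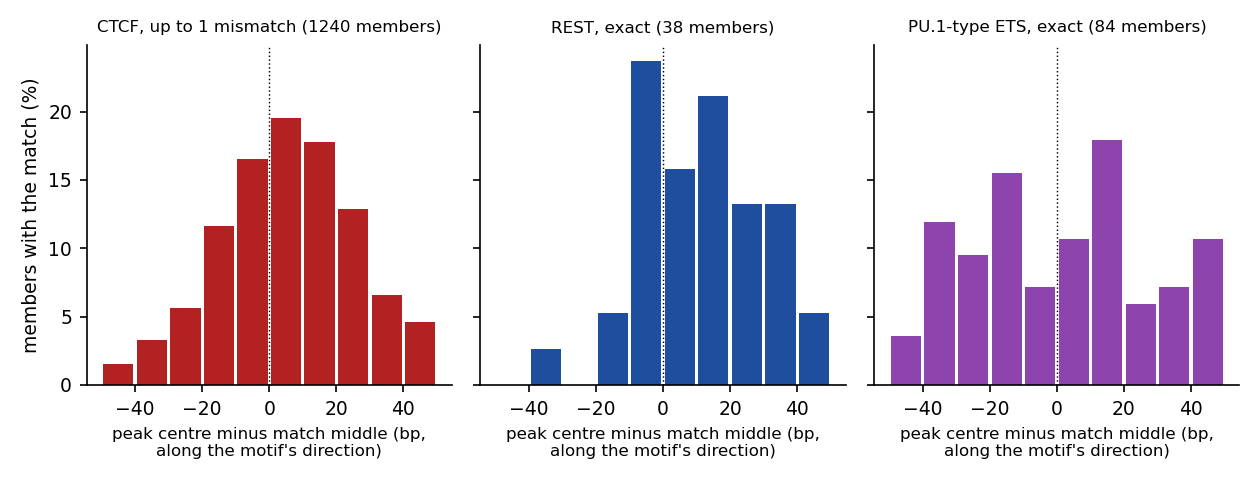
Percent of members with the match (y axis) by the distance from the middle of the match to the peak centre along the motif's direction (x axis, bp, bins of 10 bp), for CTCF with up to 1 mismatch, exact REST and exact PU.1-type ETS. The CTCF values form 1 hump slightly downstream of 0 (median 5.5 bp), while the 84 PU.1-type members are spread over the whole range.

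Among the 887 members that matched the CTCF consensus with exactly 1 mismatch, the mismatch was unevenly placed. Counting from 1 at the 5′ end of the core, 316 mismatches (35.6%) fell at position 5 and 124 at position 1. Position 2 had 1, positions 7, 8, 9 and 10 had 3, 2, 9 and 8, and positions 11 and 12 had 50 and 92. Positions where the consensus allows 2 letters have less room for a mismatch, so the counts are not a measure of what CTCF tolerates.

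An unguided search gave the same letters. Of 3817 sequences of 8 letters (8-mers, strands joined) found in the central 100 bp of at least 20 members, the highest ratio of members to weak peaks of replicate 1 alone belonged to GCGCCCCC. It was in 146 members (4.17%) and 274 of the unshared peaks (0.323%), a ratio of 12.9. The next were AGGTGGCG (123 members, ratio 12.2), GGCGCCCC (45, 10.4), GATGGCGC (64, 10.3) and AGCGCCCC (90, 10.0). The remaining 5 of the first 10 were GGGCGCAC, GGGCGCCC, AGATGGCG, GAGCGCCC and ACAGCGCC, with ratios from 8.68 to 9.49. Most of these overlap one another and can be read as pieces of the CTCF core or its immediate downstream letters on one strand or the other.

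The 14th 8-mer, GCAGTACC, is not part of that core and was singled out after its values were seen. It was found within 50 bp of the centre of 161 members, 4.59% (3.95% to 5.34%), against 0.561% of the weak peaks of replicate 1 alone, 0.928% of the stronger shared peaks and 0.653% of all distal peaks. Of the 161 members 123 had no CTCF match within 1 mismatch. When the letters 16 bp after the start of the 8-mer were compared with the CTCF consensus, 34 members had 0 or 1 mismatches there, 115 had 2 or 3 and 12 had 4 or more. The median was 2 mismatches, whereas at the other offsets within 40 bp a typical value was 9. An upstream element at a set distance from the core is a known extension of the CTCF motif, bound by further zinc fingers of the protein. In the following members the capitals mark first the 8-mer and then the core 16 bp from its start, in 4 sites with 1 mismatch in the core at most and in 4 with 2 or 3, so that the constant spacing can be seen against the changing core.
Sdk2, chr11:113863604-113863645, minus strand: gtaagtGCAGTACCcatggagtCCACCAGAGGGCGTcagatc
Cdh23, chr10:60613102-60613143, minus strand: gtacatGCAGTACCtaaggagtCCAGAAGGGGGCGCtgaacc
Tent4a, chr13:69553177-69553218, plus strand: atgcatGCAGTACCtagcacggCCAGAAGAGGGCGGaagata
Map4k3, chr17:80815940-80815981, minus strand: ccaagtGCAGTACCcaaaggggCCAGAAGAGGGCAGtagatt
Ltbp1, chr17:75372532-75372573, plus strand: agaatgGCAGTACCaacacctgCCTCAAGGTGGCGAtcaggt
Acadl, chr1:66847675-66847716, plus strand: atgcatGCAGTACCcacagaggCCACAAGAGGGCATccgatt
Ccdc170, chr10:4545758-4545799, minus strand: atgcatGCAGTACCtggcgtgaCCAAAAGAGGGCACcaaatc
Gja5, chr3:97048547-97048588, minus strand: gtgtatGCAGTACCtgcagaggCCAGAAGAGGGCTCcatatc

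In replicate 1 and replicate 2 these 8 sites scored 74 and 35 (Sdk2), 65 and 31 (Cdh23), 72 and 31 (Tent4a) and 78 and 31 (Map4k3). Those with more mismatches scored 77 and 36 (Ltbp1), 69 and 32 (Acadl), 72 and 31 (Ccdc170) and 73 and 31 (Gja5), in the same range. The core was within 3 mismatches at that spacing in 92.5% of the members with the 8-mer (87.4% to 95.7%). The same held for 61.3% of the 476 weak peaks of replicate 1 alone with the 8-mer (56.9% to 65.6%) and 63.2% of the 280 stronger shared peaks (57.4% to 68.6%). The members with the 8-mer and no CTCF match within 1 mismatch had on average 50.6% of their bases soft-masked, the assembly's marking of repeats, against 26% over all members. The same kind of peak had 49.1% in the weak peaks of replicate 1 alone, 39.6% in the stronger shared peaks and 45.4% over all distal peaks, so the masking went with the 8-mer in each set. Rodent B2 repeats are known to carry CTCF sites, but the marking used here does not name the repeat.

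**Figure D5:**
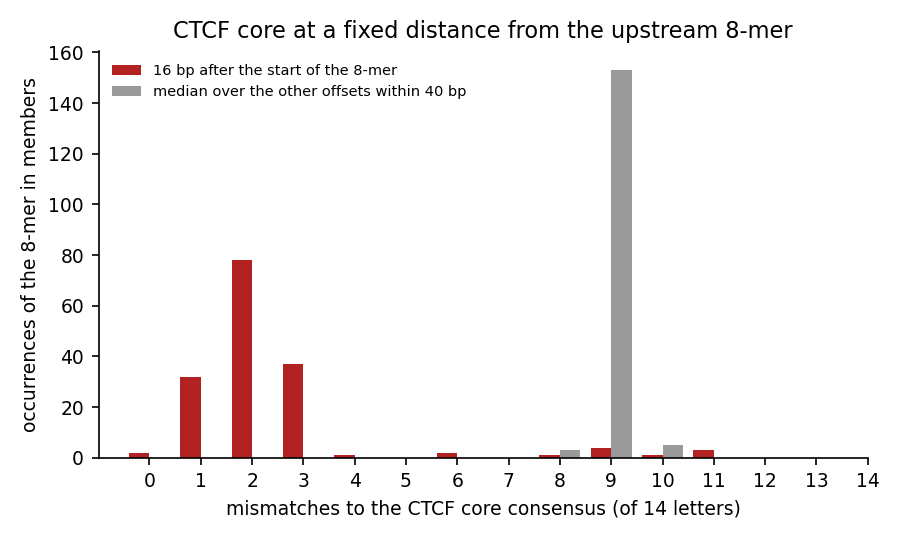
Number of occurrences of the upstream 8-mer in members (y axis) by the mismatches to the 14-letter CTCF consensus (x axis), 16 bp after the start of the 8-mer and as the median over the other offsets within 40 bp. At 16 bp 149 of 161 occurrences have 3 mismatches or fewer, while the medians at other offsets are 8, 9 or 10.

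The REST members are described in the order of their replicate 2 scores. The highest replicate 2 score of an exact REST member was 35, at the intronic site nearest to Gripap1, which encodes a neuronal endosome protein (79 in replicate 1). The site 3262 bp from Sult4a1, the gene of a brain sulfotransferase, scored 65 and 31. The intronic site nearest to Shank2, a scaffold of excitatory synapses, scored 77 and 29, and that nearest to Kcnab2, a potassium channel subunit, 68 and 29. The intronic site nearest to Crtac1 scored 79 and 29.

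The others of the 10 highest were near Nectin1, a cell adhesion protein (73 and 29), Slc7a14, a transporter (75 and 27), Phactr3 (75 and 26) and Coa6, which serves mitochondria (69 and 26). Below these 10, 1 nearest gene was on the list of neuronal genes bound by REST: Stmn2, a stathmin of growing axons, with a site 1055 bp from a start that scored 53 and 20. Further nearest genes included neuronal ones, such as Dcx (45 and 14), Map1b (68 and 25) and Grik3 with 2 members (64 and 23, 77 and 22). Elfn1 (75 and 22), Scn10a (71 and 21), Slc6a11 (66 and 21) and Htr6 (70 and 20) were others. So were Nsf (78 and 18), Kalrn (63 and 17) and Unc5c (72 and 12). Genes not known for neurons were also among them, such as Api5, Apob, Chst1, Dnah9, E2f7, Epc2, Galnt14, Med27, Mrm1 and Spdya. These names were picked after their values were seen, and no tally by function was made.

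The REST members were also isolated. The nearest other peak of replicate 1 lay at a median of 9350 bp, against 3980 bp for exact CTCF members, 2100 bp for all members, 1060 bp for the weak peaks of replicate 1 alone and 880 bp for the stronger shared peaks. In all 38 the central 32 bases occurred once in the assembly, which allows up to 9.18% with repeats by the Wilson interval. They occurred more than once in 11.2% of all members, 3.12% of exact CTCF members, 2.48% of stronger shared peaks and 4.66% of all distal peaks. Such single copies therefore did not set the REST members apart from the last 3 of these sets. The mean soft-masked share of the REST members was 5.74%, against 14.7% in the exact CTCF members and 29.4% in the members with neither match.

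By place, 1699 members (48.5%, 46.8% to 50.1%) lay in introns of protein-coding genes, 194 (5.54%) in a non-coding gene only and 1611 (46.0%) in no annotated gene. The intron share was 52.3% in the weak peaks of replicate 1 alone and 48.1% in the stronger shared peaks. The members were farther from a TSS, with a median of 21353 bp, than the weak peaks of replicate 1 alone, with 14181 bp, and the stronger shared peaks, with 13452 bp. Within 10 kb of a TSS lay 29.8% of the members (28.3% to 31.3%), 40.1% of the weak peaks of replicate 1 alone and 41.0% of the stronger shared peaks. Of the exact CTCF members 22.4% lay within that distance (18.3% to 27.0%).

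Chromosome X stood apart in the share that was found again. Of its 2282 weak distal peaks 7.45% were shared (6.44% to 8.60%), against 3.88% on the autosomes (3.75% to 4.01%). The difference was present in each score bin, for example 20.3% and 10.0% from 70 to 79. Of the X members 50.6% matched CTCF with up to 1 mismatch (43.1% to 58.0%), and of the autosomal members 34.6% (33.0% to 36.2%). Over all weak distal peaks, shared or not, the shares were 10.3% on X and 5.58% on the autosomes, so X peaks held the match more often in general. Without such a match the shared share was still higher on X, 4.10% (3.33% to 5.05%) against 2.68% (2.57% to 2.80%). For distal peaks scoring 80 or more the shares were alike, 47.8% on X (44.8% to 50.8%) and 47.1% on the autosomes.

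A smaller group of members had a partner in common with a neighbour. In 392 members (11.2%) the partner also overlapped a stronger replicate 1 peak, so the pairing of the weak window was shared with that peak. Their overlap with a replicate 2 peak had a median of 50 bp and their partner a median score of 22. In 69.1% of them the central 32 bases occurred more than once in the assembly, against 3.95% of the other 3112 members. Their soft-masked share was 56.2% on average, against 22.2%, and only 5.36% of them matched CTCF with up to 1 mismatch, against 39.2%. Of the 10 members with the highest replicate 2 scores, from 52 to 84, all were of this kind.

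Such a window is shown near Sdhaf1, a gene of mitochondrial complex assembly, with the bases inside the replicate 2 partner in capitals. It scored 72 in replicate 1 and its partner 57, with an overlap of 30 bp. A run of alternating bases fills the middle of the window and the partner begins beyond it. Near Wnk2, the gene of a kinase of ion transport, the scores were 74 and 52, and 10 bp at the left end were shared.
Sdhaf1, chr7:30325376-30325525, plus strand: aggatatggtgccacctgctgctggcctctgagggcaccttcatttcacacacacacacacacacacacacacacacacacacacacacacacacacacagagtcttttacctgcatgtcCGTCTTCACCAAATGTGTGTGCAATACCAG
Wnk2, chr13:49162996-49163145, plus strand: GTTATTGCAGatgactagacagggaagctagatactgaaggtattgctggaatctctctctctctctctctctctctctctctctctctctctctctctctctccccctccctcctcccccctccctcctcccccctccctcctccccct

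Over all members the central 32 bases occurred more than once in 11.2% (10.2% to 12.3%), against 5.82% of the weak peaks of replicate 1 alone and 2.48% of the stronger shared peaks. The part of such sequence in the pairing was not tested. The 5 members with the lowest replicate 1 scores, near Dnah7b, Olfr299, Gap43, Shroom4 and Cxcl13, scored 8, 10, 12, 13 and 14, with partners at 2, 4, 5, 2 and 8. Their soft-masked shares were 100%, 52.7%, 100%, 100% and 84.7%, all above the mean of the members. Without the 392 members whose partner was shared with a stronger peak, 11.2% held an exact CTCF match (10.1% to 12.3%).

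The members were spread thinly over genes. They had 2702 different nearest protein-coding genes, 12.4% of the 21728 annotated, and 2099 of these had a single member. Mtus2, which encodes a microtubule-associated protein, had most, with 9 members between positions 147926096 and 148293605 of chromosome 5. Their replicate 1 scores ran from 44 to 79 and their replicate 2 scores from 9 to 31. Of these 9, 2 matched CTCF with up to 1 mismatch and 1 matched REST. Kalrn, a guanine nucleotide exchange factor of neurons, had 6 members, of which 2 matched CTCF with up to 1 mismatch and 1 matched REST. Wdfy3, an autophagy adaptor, also had 6. Eml1, a microtubule protein, had 5, of which 4 matched CTCF with up to 1 mismatch. Of 10 genes tied at 5 members, 7 are named here, the first by alphabet: besides Eml1 these were Pard3, Bbs9, Smyd3, Stk3, Pls3 and Dynlt1b, and 3 of the 5 near Dynlt1b and 3 of the 5 near Pls3 held a central sequence found more than once.

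Few genes of the myeloid programme had such a peak nearest to them. Of 12 myeloid transcription factors 1 did, Klf4, a monocyte regulator, whose member 42925 bp away scored 79 and 14. Of 15 stem and progenitor regulators 2 did, Fli1, an ETS factor (60 and 25), and Kit, a growth factor receptor (71 and 19). Of 15 neutrophil granule and oxidase genes 1 did, Cybb, a subunit of the phagocyte oxidase, whose member held an exact CTCF match (79 and 28). The replicate 2 partner of the Cybb member also overlapped a stronger replicate 1 peak. Of the 13 genes of the HOXA-MEIS programme 0 did. These shares, from 0 to 13.3%, lay around the 12.4% of all protein-coding genes and rest on 0 to 2 genes each.

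Of 28 neuronal genes known to be bound by REST, 7 had a member (25%), with 8 members in all. Nefl and Nefm, neurofilament subunits, had 1 each (77 and 24, 59 and 16), as had Scg3, a granule protein (72 and 20), and none of these held an exact REST match. Of 17 imprinted genes 2 had a member (11.8%, against 12.4% of all protein-coding genes), Dlk1 (66 and 24) and Igf2 (65 and 17), and of 16 Hox cluster genes 3 did (18.8%), Hoxc4 with 2 members, Hoxb1 and Hoxb9. Of the 4 Hox members 0 matched CTCF with up to 1 mismatch, a number too small to set against the 35.4% over all members.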

How the data were processed

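DNase-seq peaks and hotspots of 2 biological replicates were used as deposited. Per the labels and the text files deposited with them, both libraries of a replicate were aligned to mm10 and gave 1 peak and 1 hotspot list. The deposited peak score (column 7) has no stated scale, and the deposited hotspot value is a −log10 q with a ceiling of 100. The aligner, peak caller and read numbers were not given in the sources used here.

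Repeated entries (48 and 5) were kept once. Exons of all genes and TSS of every transcript of protein-coding genes were taken from GENCODE M21, and sequence from the RefSeq copy of GRCm38. Distances run from the nearest edge of a peak. Motifs were consensus matches to 21 factors on both strands, and CTCF, REST, NRF1, IRF, MEF2, RFX and ZNF143 are given by name. Functions were tested on simulated data with planted answers (Python 3.11.15, numpy 2.4.6, pandas 2.3.3, pysam 0.24.0). No comparison was tested, since each replicate has 1 list. Named sites followed a rule: the highest replicate 2 scores overall and per motif, the lowest replicate 1 scores, the genes with most members, and up to 4 genes per list. The sites shown with the upstream 8-mer, the sequences printed out of each 10, and other REST neighbours were picked after values were seen. Members, motifs and gene lists were chosen with earlier results of these data known. Alternatives changed the ceiling, overlap, place rules, annotation, hotspots and motif search. Some named sites are not reported here.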

Additional observations from a re-analysis of the deposited data

How the results depend on the processing

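Of 116 values recomputed under alternatives, 89 stayed within the 95% interval of the reported value (counts: within 1.5 times) and 27 moved. A ceiling of 70 gave 1860 members with an exact CTCF share of 8.87%, a median replicate 2 score of 17 and 28.0% of bases soft-masked. A ceiling of 90 gave 5834 members with 12.2% CTCF, 3.00% PU.1-type ETS, a median of 20 and 23.3% soft-masked. An overlap of at least 75 bp gave 11.4% CTCF and 23.5% soft-masked, and leaving out partners shared with a stronger peak gave 11.2% and 22.2%. The intron share was 46.6% at least 2500 bp from a TSS, 51.5% within 50 kb, 46.5% with gene 5′ ends only and 50.2% with a central 32-mer found once. The soft-masked share was 27.1% within 50 kb and 22% with a central 32-mer found once. CTCF was 12.2% in members under 50% soft-masked. Anywhere in the window, PU.1-type ETS was 3.00% and AP-1 4.22%. With 1 mismatch CTCF was 35.4% in members and 4.48% in weak peaks of replicate 1 alone, and REST was 2.08%. CTCF in weak peaks of replicate 1 alone was 0.558% within 50 kb and 0 in the 197 lying in hotspots of both replicates. In every alternative that gives both values the members' CTCF share exceeded that of the peaks of replicate 1 alone. The distance from the peak centre, the single-copy 32-mer and the REST mismatch were chosen after seeing the data. The cause of these shifts was not tested. No replicate could be left out, and no paired analysis was possible because sharing needs both lists and no test was made.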
